A study of Mus musculus with 6 samples.

Results

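Gene expression and isoform use were compared between wild-type mouse cortical neurons kept for 3 days in vitro (DIV3) and for 1 day in vitro (DIV1). The comparison takes the 4 wild-type libraries of the 6 in the series, 2 at each age. The neurons came from the neocortex of C57BL/6 embryos at embryonic day 14 and were plated in 35 mm dishes in medium with horse serum, which was replaced after 6 h by a serum-free feeding medium with B-27 supplement. Both ages share this protocol and differ in time in culture. Whether they came from the same plating is not stated, so age and culture batch cannot be told apart. The remaining 2 libraries, labelled Ptbp2 knockout at DIV1, entered the fits to share the estimate of spread, and so also the filter and the scaling. Their replicates lay further apart, with a chi-square between replicates of 75.04 per gene against 22.69 at DIV1 and 18.69 at DIV3 in wild type. The labels name 2 biological replicates in each group, and do not say whether separate embryos or culture days gave them. The p-values therefore cover the spread within these library pairs, the knockout pair included, which may be technical.

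Between these ages, dissociated cortical neurons pass from several similar short neurites to a single growing axon. A neuron that matures leaves the cell cycle programme, builds a transport system of microtubules and motors, sets its chloride gradient and membrane excitability, and begins to make the proteins that organize synapses. Many of its genes also change which exons they use, and some proteins are replaced by a relative encoded by another gene.

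The libraries held 47044778 and 49017376 expected counts at DIV1 and 75522198 and 39104879 at DIV3. Levels are given as CPM, normalised read counts scaled to library size with TMM factors, and differences as log2 fold changes of DIV3 over DIV1 with their standard error. Of 16847 genes tested, 6088 (36.1%) were called by edgeR's quasi-likelihood test at an adjusted p under 0.05, of which 3328 (19.8%) were higher and 2760 (16.4%) lower at DIV3. Changes of at least 2-fold were called for 1197 genes (7.11%) upward and 856 (5.08%) downward. These shares are the background against which every count below is read. In bulk samples, fewer cells of a type and less RNA per cell cannot be told apart. Defining neuron markers were present in all libraries. Of the 12 listed, 9 rose, Rbfox3 and Elavl3 were not called, and Elavl4, a neuronal RNA-binding protein, fell from 269 and 244 to 186.7 and 189.6 CPM. Tubb3 went from 1435 and 1511 CPM at DIV1 to 2468 and 2631 CPM at DIV3.

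The largest increases among called genes averaging 20 CPM or more began with Nwd2 (chromosome 5, 63649102 to 63810546, GRCm38). It was measured at 1.37 and 1.12 CPM at DIV1 and at 67.6 and 68.3 CPM at DIV3, a log2 fold change of 5.77 ± 0.19 (SE). The ages lay far apart and the replicates of each age close together. Necab1 and Caln1, which encode neuronal calcium-binding proteins, rose by 3.57 ± 0.27 and 3.39 ± 0.19. Necab1 stood at 4.25 and 4.09 CPM and then at 54.6 and 44.6 CPM. Met, the receptor for hepatocyte growth factor, went from 6.28 and 5.56 to 53.2 and 53.7 CPM. Fst, which encodes the activin antagonist follistatin, went from 5.10 and 3.93 to 34.8 and 38.6 CPM. Slc6a11, a GABA transporter, went from 5.92 and 5.93 to 46.9 and 44.8 CPM. Stum and Trank1 completed the 8 largest increases, at log2 fold changes of 3.44 ± 0.11 and 3.27 ± 0.22.

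The largest decreases were smaller. Id3, an inhibitor of basic helix-loop-helix factors that responds to BMP signals, fell from 71.4 and 74.9 CPM to 12.98 and 25.2 CPM, and its DIV3 replicates differed from each other by more than those of the other genes in this group. Mical1, an enzyme that oxidizes actin, fell from 32.0 and 34.8 to 8.78 and 10.7 CPM. Dach1, a transcriptional repressor of progenitors, fell from 35.1 and 29.0 to 10.8 and 8.35 CPM. The others were Igfbp4, Psrc1, a microtubule regulator of the spindle, Slc30a10, a manganese exporter, Zfp521 and Cecr2, with log2 fold changes from -1.68 to -1.52. No library of one age overlapped the other in any of these 16 genes. They were picked for large changes in these same libraries, so this adds no support.

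**Figure D1:**
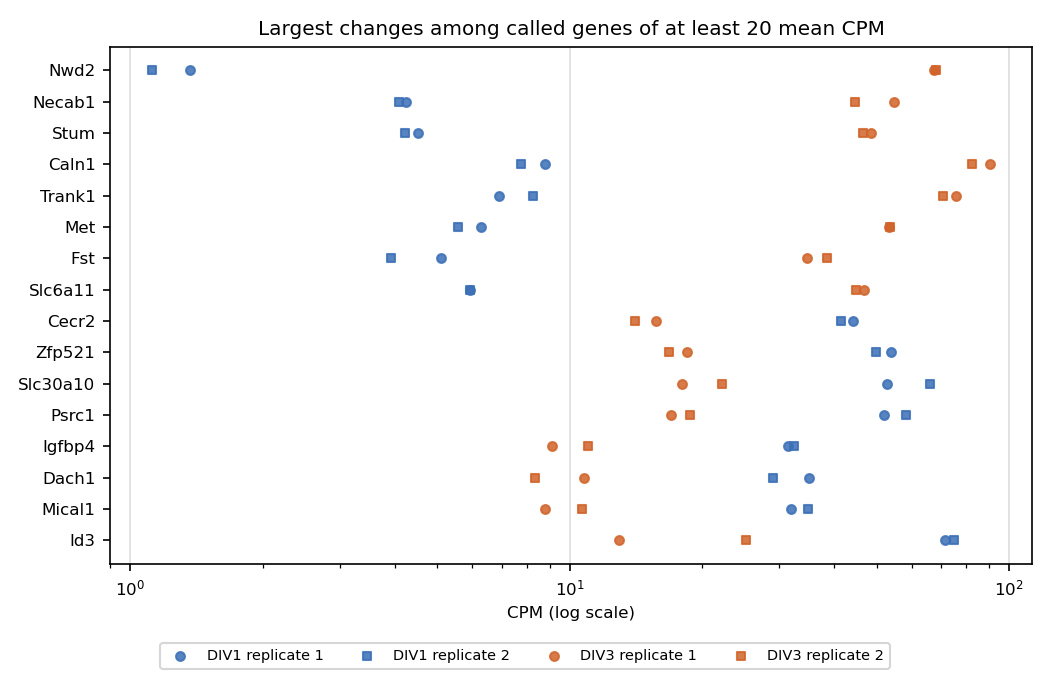
CPM on a log axis in each of the 4 wild-type libraries for the 8 largest increases and 8 largest decreases among called genes of at least 20 mean CPM, with colour for age and shape for replicate. Nwd2 stands farthest apart, at 1.37 and 1.12 CPM against 67.6 and 68.3 CPM.

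Motors of transport and motors of mitosis went opposite ways. Of 30 kinesins, dynein subunits and adaptors of neuronal transport, 21 rose and 3 fell, with a median log2 fold change of 0.36. All 12 mitotic kinesins fell, with a median of -1.12. Dync1i1, an intermediate chain of cytoplasmic dynein, stood at 65.1 and 67.2 CPM at DIV1 and at 248 and 246 CPM at DIV3, a rise of 1.90 ± 0.10. Kif3b, a motor subunit of kinesin-2, went from 97.9 and 96.4 to 182 and 179 CPM. Kif14, a kinesin of cytokinesis, fell from 26.9 and 26.5 to 10.97 and 10.3 CPM, and Kifc1, which focuses spindle poles, fell by 1.26 ± 0.11. With each wild-type library left out in turn, the transport genes called higher numbered 10 or 11 and none was called lower, while all 12 mitotic kinesins were called lower each time. Library totals in place of TMM gave 13 transport genes higher.

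Microtubule-associated proteins and stathmins, which stabilize microtubules or, for stathmins, bind tubulin and destabilize them, rose in 25 of 31 members and fell in none. Tppp, which bundles microtubules, went from 14.6 and 13.3 to 42.2 and 41.7 CPM, and Map9 from 114 and 106 to 299 and 276 CPM. Leaving out 1 wild-type library, between 14 and 18 members were called higher. Among 13 tubulin isotypes tested of 14, 5 rose and 3 fell, and the list's median of 0.10 turned to -0.01 with library totals and to -0.03 with no filter on low counts. Tubb2a went from 275 and 295 CPM to 599.9 and 643 CPM. Tuba1c fell from 29.5 and 30.7 to 3.62 and 5.17 CPM. Tubulin genes have near-identical copies, so the split of reads among them is less certain than for other genes. Between 2 and 5 isotypes were called higher when 1 wild-type library was left out.

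The genes that set inhibition and excitability rose in most members tested. Of 18 GABA and glycine receptor subunits and gephyrin tested, of 20 listed, 17 rose and none fell, with a median log2 fold change of 1.51. Gabrb1, a beta subunit of the GABA-A receptor, went from 11.4 and 11.5 to 60.7 and 56.4 CPM. The chloride exporter KCC2, encoded by Slc12a5 (chromosome 2, 164960802 to 164999731), sets the low chloride that makes GABA inhibitory. It went from 5.10 and 4.28 to 33.5 and 30.5 CPM, a rise of 2.77 ± 0.14. Of 21 chloride transporters, sodium pump subunits and calcium pumps, 13 rose and 2 fell. Atp1b1, a subunit of the sodium pump, went from 59.1 and 70.4 to 241 and 255 CPM, while Slc12a7, another potassium chloride cotransporter, fell from 41.5 and 44.5 to 24.7 and 28.1 CPM. The members called higher numbered 8 to 10 when 1 wild-type library was left out.

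Potassium channels rose in 31 of 51 members tested and fell in 5, with a median of 0.95. Kcnj2, an inward rectifier that holds the resting potential, went from 0.725 and 0.707 to 17.6 and 17.7 CPM, a rise of 4.62 ± 0.18. Kcnf1 rose by 2.49 ± 0.18. The small conductance calcium-activated channels Kcnn1 and Kcnn2 moved the other way. Kcnn1 fell from 12.1 and 12.1 to 4.87 and 5.04 CPM, and Kcnn2 from 34.1 and 33.7 to 19.4 and 18.7 CPM. Calcium sensors and buffers rose in 17 of 23 members tested and fell in 2. Necab3 fell by 2.25 ± 0.13 from 12.97 and 13.4 to 2.59 and 2.99 CPM, opposite in sign to its relative Necab1. The potassium channels called lower numbered 2 or 3 when 1 wild-type library was left out.

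Synaptic organizers, the adhesion proteins that align the sides of a synapse, rose in 32 of 38 members tested, and none fell. With the trend of fold change with transcript length taken out, Flrt1 and Ptprs were called lower, at log2 fold changes of -0.60 and -0.35. Nlgn3 was then not called. Cadm2, an immunoglobulin adhesion molecule, went from 38.5 and 34.9 to 168 and 161 CPM, and Slitrk4 from 7.79 and 7.39 to 22.3 and 18.7 CPM. Receptors coupled to G proteins for transmitters rose in 24 of 36 members tested and fell in 3. Npy1r, a receptor for neuropeptide Y, went from 1.14 and 1.22 to 19.4 and 20.3 CPM, a rise of 4.07 ± 0.15. Grm7, a presynaptic glutamate receptor, rose by 2.66 ± 0.13. Sstr2, a somatostatin receptor, fell from 44.7 and 50.1 to 22.1 and 25.9 CPM. Its ligand gene Sst went from 26.7 and 33.4 to 104 and 92.5 CPM. Neuropeptides, granins and their processing enzymes rose in 18 of 23 members tested, among them the convertase Pcsk2, from 12.1 and 14.6 to 33.6 and 30.6 CPM. With 1 wild-type library left out, 13 to 15 of the receptors were called higher.

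Among adhesion genes, of 25 protocadherins and cadherins outside the clusters, 18 rose, with Pcdh7 going from 40.9 and 36.6 to 147 and 131 CPM. Only Celsr1, a cadherin of planar polarity, fell, by 0.64 ± 0.10 on the log2 scale. With the trend with transcript length taken out, Celsr2 was also called lower, at a log2 fold change of -0.34, and Pcdh19 was not called. Eph receptors and ephrins rose in 10 and fell in 4 of 21 members tested. Epha7 went from 37.8 and 35.5 to 81.7 and 75.9 CPM. Semaphorins, plexins and neuropilins rose in 12 and fell in 6 of 30 members tested. In these 2 lists the share called lower, 19.05% and 20%, was near the 16.4% over all genes. Plxnd1, a semaphorin receptor, went from 60.7 and 56.3 to 127 and 119 CPM, and Sema5a fell from 122 and 110 to 69.7 and 65.5 CPM. When 1 wild-type library was left out, the ephrin and Eph members called lower numbered 0 to 2, and the semaphorin and plexin members called lower 1 or 2.

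Among receptors of growth factors, Ntrk2, which encodes the receptor of brain-derived neurotrophic factor, went from 100.5 and 94.7 to 311 and 269 CPM. The list of neurotrophin and GDNF family signalling rose in 9 of 15 members tested and fell in 1, Cntfr, from 20.8 and 22.2 to 12.6 and 13.3 CPM. The members called higher were 5 to 7 with a wild-type library left out. Notch genes, which keep progenitors from differentiating, fell in 13 (52%) and rose in 4 (16%, near the 19.8% over all genes) of 25 members. Hes1, a Notch target, fell from 11.5 and 12.3 to 5.52 and 4.66 CPM, and Mfng, which modifies the Notch receptor, from 42.1 and 42.5 to 14.9 and 14.7 CPM. Dtx4 went the other way, from 43.1 and 42.5 to 141 and 167 CPM. With a wild-type library left out, 7 or 8 Notch genes were called lower.

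Of 36 Wnt genes tested, 7 were called higher (19.4%, near the 19.8% over all genes) and 11 lower (30.6%). They were 3 to 6 higher and 5 to 8 lower with a wild-type library left out. The transcription factors Lef1 and Tcf7l1 fell, Lef1 from 9.84 and 9.74 to 1.80 and 2.15 CPM. The ligand Rspo2 and its receptor Lgr4 rose, Rspo2 from 2.22 and 0.864 to 19.6 and 21.03 CPM. In the BMP, TGF beta and activin pathway 9 rose and 5 fell of 35 tested, and 3 to 5 were called higher with a wild-type library left out. With all libraries the shares were 25.7% higher and 14.3% lower, against 19.8% and 16.4% over all genes. Id1 fell with Id3, by 1.65 ± 0.12 on the log2 scale, while Inhba, the activin subunit, went from 2.94 and 2.44 to 18.96 and 11.1 CPM.

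Proneural and neuronal basic helix-loop-helix factors fell in 11 (52.4%) and rose in 4 (19.05%, near the 19.8% over all genes) of 21 members tested. Nhlh1 fell from 26.97 and 24.3 to 6.13 and 5.33 CPM, and Neurog2, which commits progenitors to the neuronal fate, from 135 and 131 to 72.1 and 60.9 CPM. Of these factors, 5 to 8 were called lower with a wild-type library left out. Bhlhe22 went the other way, from 365 and 340 to 640 and 635 CPM. Of the timing genes that mark young progenitors, 9 fell and 1 rose of 15 tested, with Igf2bp2 going from 62.4 and 55.1 to 23.3 and 21.1 CPM. DNA methylation and Polycomb genes fell in 8 and rose in 2 of 31, and Uhrf1, the partner of the maintenance methyltransferase, fell from 133 and 133 to 78.8 and 76.3 CPM. The genes called lower were 14 with the length offset, 12 with library totals and 3 or 4 with a wild-type library left out. BAF chromatin remodelling subunits rose in 4 and fell in 6 of 28, shares near those over all genes, and 14 were lower with the length offset. Of 58 replication-dependent histones listed, 21 passed the filter on low counts, most of them at under 1 CPM. A member that passed only through its DIV1 counts had to be lower at DIV3, so no count of calls is given for this list. Hist1h4i fell from 11.5 and 11.6 to 4.27 and 4.77 CPM, while Hist3h2a, at 131.5 and 126 and then 125 and 133 CPM, was not called. The summed level of the list was 239 and 224 CPM at DIV1 and 209 and 212 CPM at DIV3.

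Imprinted genes fell in 13 (39.4%) and rose in 6 (18.2%, near the 19.8% over all genes) of 33 members tested. The counts were 2 to 5 higher and 9 or 10 lower with a wild-type library left out. H19 (chromosome 7, 142575529 to 142578143), a maternally expressed long noncoding RNA, fell from 17.5 and 17.2 to 2.55 and 2.67 CPM, and Mest from 251 and 261 to 99.0 and 103 CPM. Meg3, another maternally expressed noncoding RNA, went from 249 and 325 to 639 and 508 CPM, and its call was lost without DIV1 replicate 1 and without DIV3 replicate 1. Splicing factors of the SR and hnRNP families fell in 10 of 37 members and rose in none. Hnrnph3 fell from 277 and 283 to 171 and 166 CPM. They numbered 2 with any wild-type library left out, 16 with the length offset and 24 with library totals. Of 27 long noncoding RNAs tested, 6 rose (22.2%) and 8 fell (29.6%), against 19.8% and 16.4% over all genes.

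Genes of protein synthesis were called lower or not called. Of 80 cytosolic ribosomal proteins 2 fell (2.5%, under the 16.4% over all genes) and none rose. The list's median of -0.21 was -0.07 once the trend with transcript length was taken out. Ribosome biogenesis genes fell in 9 of 30 (30%) and aminoacyl-tRNA synthetases in 4 of 20 (20%, near the share over all genes), with none higher in either. With a wild-type library left out these counts were 1 to 3 and at most 1. Nuclear-encoded genes of oxidative phosphorylation rose in 2 and fell in 1 of 74 tested, with a median of 0.07. With the length trend taken out, 34 of them were called higher and 2 lower, and with library totals the median was -0.05. Lysosome and proton pump genes rose in 25 and fell in 3 of 47. Ids, a lysosomal sulfatase, went from 227 and 210 to 529 and 494 CPM, while Ctsz, a lysosomal protease, fell from 23.4 and 26.6 to 6.64 and 8.24 CPM. The lysosome genes called higher were 9 to 12 with a wild-type library left out and 16 with library totals. Of 33 Bcl2 family, caspase and axon maintenance genes, 5 rose and 5 fell, 15.15% each way, near the 19.8% and 16.4% over all genes. Birc5, which blocks caspases and serves in mitosis, fell from 58.9 and 60.5 to 24.9 and 26.2 CPM.

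At the cell surface, enzymes of gangliosides and polysialic acid rose in 12 of 22 members tested and fell in 1. St6galnac5 went from 13.5 and 13.8 to 70.0 and 62.7 CPM. Extracellular matrix and proteoglycan genes rose in 17 and fell in 5 of 37 tested. Among those that rose, Gpc5 stood at 0.207 and 0.177 CPM at DIV1, near the filter on low counts, and at 2.30 and 2.75 CPM at DIV3. Sparcl1 went from 24.2 and 25.1 to 125 and 132 CPM, and Lama2, a laminin chain, from 1.28 and 1.67 to 10.97 and 10.6 CPM, while the glypican Gpc4 fell from 69.4 and 64.8 to 35.1 and 38.8 CPM. Markers of pericytes and fibroblasts, cells that make matrix, moved with this list. Their summed level went from 16.4 and 17.7 to 53.9 and 54.2 CPM. All 7 were called higher, but Lum, at 0.124 and 0.196 and then 0.610 and 0.539 CPM, lay near the filter at DIV1. A member that passed only through its DIV3 counts had to be higher, so the count of 7 adds no support. The part of these cells in the result was not tested.

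Markers of other cells moved in both directions. Of 8 radial glia markers, 4 fell and 2 rose. Vim fell from 714 and 709 to 376 and 365 CPM and Fabp7 went from 655 and 638 to 947 and 1010 CPM, and the summed level of the list stayed between 1810 and 1936 CPM. Of 7 oligodendrocyte lineage markers tested, 3 rose. Olig1 went from 1.49 and 1.14 to 17.2 and 12.5 CPM, and Mog was at 0 in all 4 libraries. Of 5 astrocyte markers tested, 3 rose and 2 fell. Gfap went from 0.290 and 0.393 to 1.40 and 1.02 CPM, Aqp4 rose by 2.71 ± 0.24, and Gja1 fell from 52.5 and 52.6 to 22.9 and 23.3 CPM. The summed level of erythroid markers went from 27.2 and 14.6 to 1.32 and 1.62 CPM. Members that passed the filter only through their DIV1 counts, such as Alas2 at 0 in both DIV3 libraries, had to be lower. No count of calls is therefore given for them. Globin genes have near-identical copies. Microglia markers summed to between 3.70 and 8.93 CPM and endothelial markers to between 2.32 and 3.96 CPM. Excitatory cortical neuron markers rose in 3 and fell in 5 of 12, with Tbr1, of deep layers, going from 431 and 397 to 279 and 259 CPM. Interneuron markers rose in 4 of 9. The part of these cells in the gene results was not tested.

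**Figure D2:**
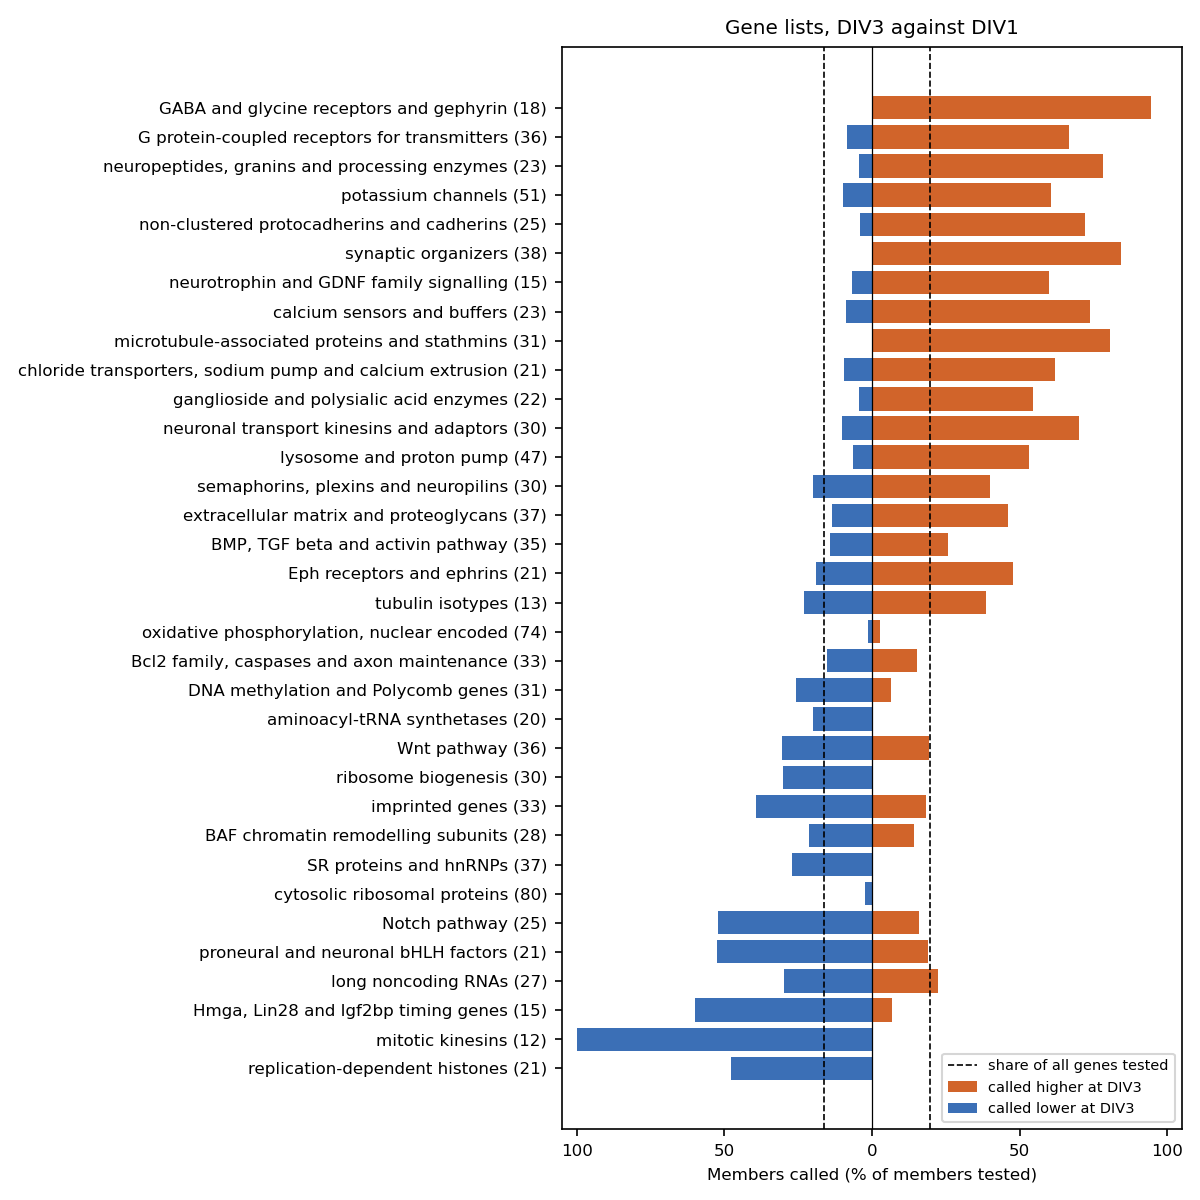
Percentage of the tested members of each gene list that were called higher (right) or lower (left) at DIV3, ordered by median log2 fold change, with the number tested in parentheses and dashed lines at the shares over all genes, 19.8% and 16.4%. GABA and glycine receptors stand at one end with 17 of 18 higher, and all 12 mitotic kinesins are lower. The bar of replication-dependent histones is not read, because members that passed the filter only through DIV1 counts had to be lower.

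Some proteins of young neurons are known to be replaced by a relative as the cell matures, and 16 such pairs were followed as the later gene's share of the pair in counts per length. The later share was larger in both DIV3 libraries than in either DIV1 library for Slc12a5 over Slc12a2, from 8.08% and 7.17% to 36.7% and 37.0%. Slc12a2, the chloride importer NKCC1, was measured at 69.3 and 66.3 CPM and then at 69.1 and 62.0 CPM and was not called. With the length offset it was called lower, at a log2 fold change of -0.21. In the BAF chromatin remodelling complex, both genes of a pair changed. Actl6a fell by 0.92 ± 0.07 on the log2 scale and Actl6b rose by 0.38 ± 0.10, taking the share of Actl6b from 60.5% and 62.4% to 78.9% and 80.5%. The call of Actl6b was lost with library totals, with the replicate block and without each wild-type library. Ss18 fell and Ss18l1 rose, and the share of Ss18l1 went from 47.2% and 45.9% to 66.6% and 65.3%. In the third BAF family, Dpf1 and Phf10 were not called, and the share of Dpf1 went from 62.9% and 64.7% to 67.6% and 68.3%. Dpf2 fell, and Dpf3, at 5.66 and 3.97 and then 3.39 and 2.26 CPM, was not called. With the length offset Dpf1 was called higher by 0.30 and Dpf3 lower by a log2 fold change of -0.72.

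Hexokinases, which trap glucose in the cell, also changed in both genes. Hk2 fell from 28.1 and 26.8 to 12.4 and 12.4 CPM, and Hk1 went from 117 and 119 to 236 and 245 CPM. Other metabolic pairs did not follow the early to late order. Ldha, listed as the early lactate dehydrogenase subunit, rose by 0.42 ± 0.08, a call lost without DIV1 replicate 1, DIV1 replicate 2 and DIV3 replicate 2. Ldhb stood at 222 and 239 and then 175 and 195 CPM and was not called. Eno1 and Eno2 were not called.

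For sodium channels and NMDA receptors, both genes of a pair rose. Scn2a rose by 1.83 ± 0.18 and Scn3a by 0.74 ± 0.15, and the share of Scn2a went from 40.6% and 40.6% to 58.9% and 59.8%. The call of Scn3a was lost without DIV1 replicate 2 and without DIV3 replicate 1. Grin2b, the juvenile NMDA receptor subunit, went from 147 and 144 to 410 and 379 CPM, and Grin2a from 4.08 and 3.81 to 13.1 and 13.2 CPM, and the later share was 4.40% and 4.19% and then 5.03% and 5.45%. The polysialic acid enzymes St8sia2 and St8sia4 rose by 0.88 ± 0.08 and 0.75 ± 0.09. The share of St8sia4, listed as the later gene, did not rise, at 22.0% and 19.7% and then 19.5% and 19.3%. Ezh2 fell by 0.63 ± 0.07 and Ezh1 rose by 0.44 ± 0.12, a call lost with library totals, with length offset and block together, and without each wild-type library.

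**Figure D3:**
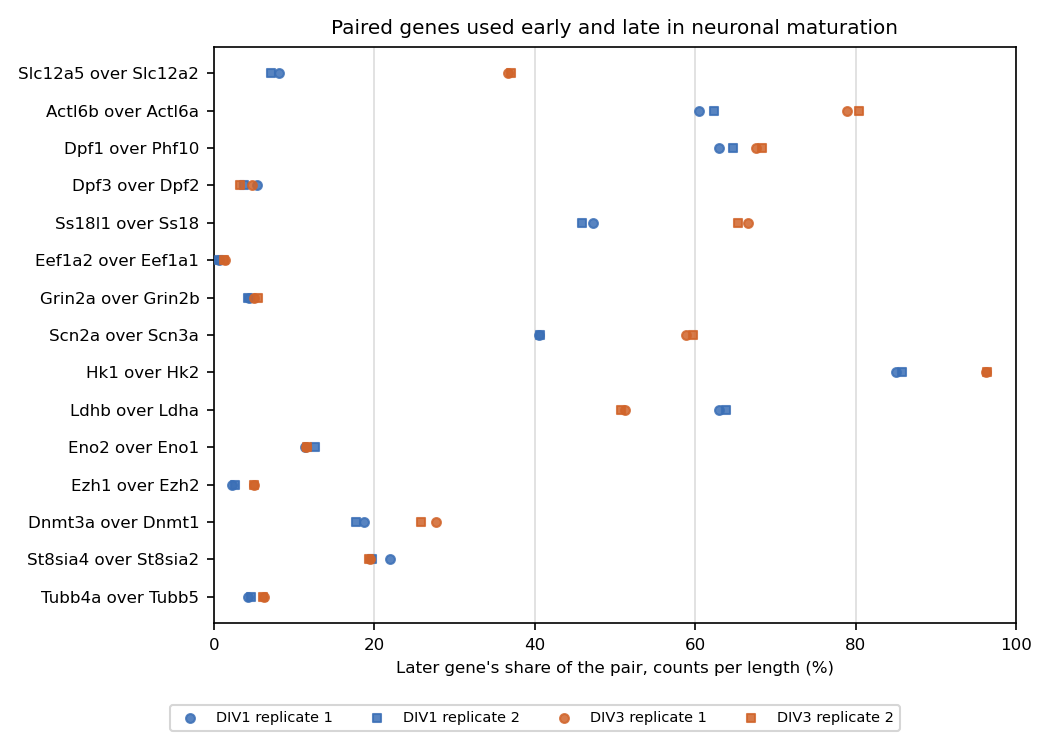
The later gene's share of each pair shown in counts per length, in percent, in each of the 4 wild-type libraries, with colour for age and shape for replicate. The share of Slc12a5 lies at 8.08% and 7.17% at DIV1 and at 36.7% and 37.0% at DIV3, while those of Eno2 overlap.

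Exon use was read from the transcript table by summing the transcripts that include an exon and those that lack it, a measure added after the data were seen. An exon's inclusion is the including share of the sum per length, as estimated by the authors' transcript model and not from junction reads. Of 5940 cassette exons and mutually exclusive pairs tested in 3528 genes, 38 (0.64%) were called by limma's diffSplice F test with a change of at least 10 percentage points. Of the 38, 22 were cassette exons with more inclusion, 13 were cassette exons with less and 3 were mutually exclusive pairs, which swap exons. With the pairs scored by the exon at the lower coordinate, the counts were 25 (0.421%) higher and 13 (0.219%) lower. The 38 events lay in 34 genes, and events of 1 gene share transcripts. Of the 29 called cassette exons that are fully coding, 27 (93.1%) were a multiple of 3 bases long, against 61.8% of 3360 tested. Their median length was 66 bases against 94, and 7 of the 29 had 30 bases or fewer, against 323 of the 3360 tested. The 7 include Cadps2 exons of 15, 9 and 21 bases, which share transcripts and are not separate changes. These calls rest on all wild-type libraries. Without 1 of them, 0 to 2 events were called, and with the replicate block 2, while the 4 wild-type libraries alone gave 183 (3.08%).

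The exons whose inclusion is described first are printed with their neighbouring exonic bases, read from the GENCODE M21 transcripts of GRCm38. Capitals mark the alternative exon and lower case the 12 bases on each side in the spliced transcript.
Kif1b, chr4:149265345-149265362, minus strand, 18 bases: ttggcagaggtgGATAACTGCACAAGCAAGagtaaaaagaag
Agrn, chr4:156167777-156167809, minus strand, 33 bases: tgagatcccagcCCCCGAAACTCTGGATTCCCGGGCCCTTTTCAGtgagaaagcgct
Ap2a1, chr7:44903462-44903527, minus strand, 66 bases: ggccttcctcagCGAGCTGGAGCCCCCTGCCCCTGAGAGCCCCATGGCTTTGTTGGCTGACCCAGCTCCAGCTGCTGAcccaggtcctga
Tpm1 downstream exon, chr9:67031951-67032026, minus strand, 76 bases: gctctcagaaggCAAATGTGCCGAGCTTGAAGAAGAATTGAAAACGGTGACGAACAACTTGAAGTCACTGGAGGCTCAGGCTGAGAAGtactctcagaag
Tpm1 upstream exon, chr9:67032466-67032541, minus strand, 76 bases: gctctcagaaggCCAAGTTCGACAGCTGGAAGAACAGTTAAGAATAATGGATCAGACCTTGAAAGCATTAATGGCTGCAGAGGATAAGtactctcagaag
Pkm upstream exon, chr9:59675029-59675195, plus strand, 167 bases: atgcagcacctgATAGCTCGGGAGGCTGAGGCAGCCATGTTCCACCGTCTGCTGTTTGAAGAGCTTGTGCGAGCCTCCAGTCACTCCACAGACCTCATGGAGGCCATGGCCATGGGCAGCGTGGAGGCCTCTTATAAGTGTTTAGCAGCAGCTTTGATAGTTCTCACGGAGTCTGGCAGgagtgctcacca
Pkm downstream exon, chr9:59675568-59675734, plus strand, 167 bases: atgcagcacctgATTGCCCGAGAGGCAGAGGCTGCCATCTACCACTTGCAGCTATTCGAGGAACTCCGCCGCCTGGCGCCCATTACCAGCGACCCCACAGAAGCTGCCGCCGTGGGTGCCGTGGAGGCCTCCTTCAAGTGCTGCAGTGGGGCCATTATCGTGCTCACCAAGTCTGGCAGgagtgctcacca

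The exons of the Tpm1 pair are identical at 43 of 76 positions (56.6%) and those of the Pkm pair at 103 of 167 (61.7%). Tpm1 encodes tropomyosins, which coat actin filaments. Its downstream exon took 62.3% and 66.1% of the pair at DIV1 and 89.5% and 87.2% at DIV3 (adjusted p = 0.00822, limma diffSplice). Pkm encodes pyruvate kinase, and its upstream and downstream exons are those of the M1 and M2 enzymes, of which M2 is known from embryonic and dividing cells. The M1 exon took 23.6% and 22.9% of the pair at DIV1 and 37.7% and 37.0% at DIV3, so the M2 form was the larger at both ages.

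The 18-base exon of Kif1b, a kinesin that carries synaptic vesicle precursors, was included at 81.3% and 82.1% at DIV1 and at 92.3% and 93.2% at DIV3. Replicates differed by less than 1 percentage point at each age. The 33-base exon of Agrn lies at the z site of agrin, whose neuronal forms cluster acetylcholine receptors at the neuromuscular junction. It was included at 12.5% and 10.4% and then at 35.7% and 29.0%. The 66-base exon of Ap2a1, a subunit of the clathrin adaptor AP-2, went from 55.2% and 53.7% to 78.2% and 79.4%.

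Further exons with more inclusion lay in Clasp1, a microtubule plus-end protein, from 7.95% and 8.29% to 27.1% and 21.5% for an exon of 117 bases. Exons of the exocyst subunits Exoc7, of 39 bases, and Exoc1, of 21 bases, changed by 10.4 and 17.6 percentage points. Smarcc2, a BAF subunit, went from 35.8% and 34.2% to 54.1% and 55.3% for an exon of 93 bases. Inclusion in Sipa1l2 changed by 26.4 points for an exon of 54 bases. Exons with less inclusion lay in Evl, an actin polymerase of the Ena/VASP family, from 31.4% and 31.1% to 12.7% and 14.5%, and in the imprinted gene Nnat, from 73.2% and 73.5% to 51.9% and 49.3%. In Evl a transcript with 10.6% and 11.7% of the gene's counts at DIV1 was listed at 0 in both DIV3 libraries. Such a zero can be a failed estimate of the transcript model. Cadps2, which primes dense-core vesicles, had 3 called exons that share transcripts, and their DIV3 replicates lay far apart, at 25.2% and 48.6% for the exon of 15 bases. With the length trend taken out, 35 of the 38 events kept an adjusted p under 0.05.

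**Figure D4:**
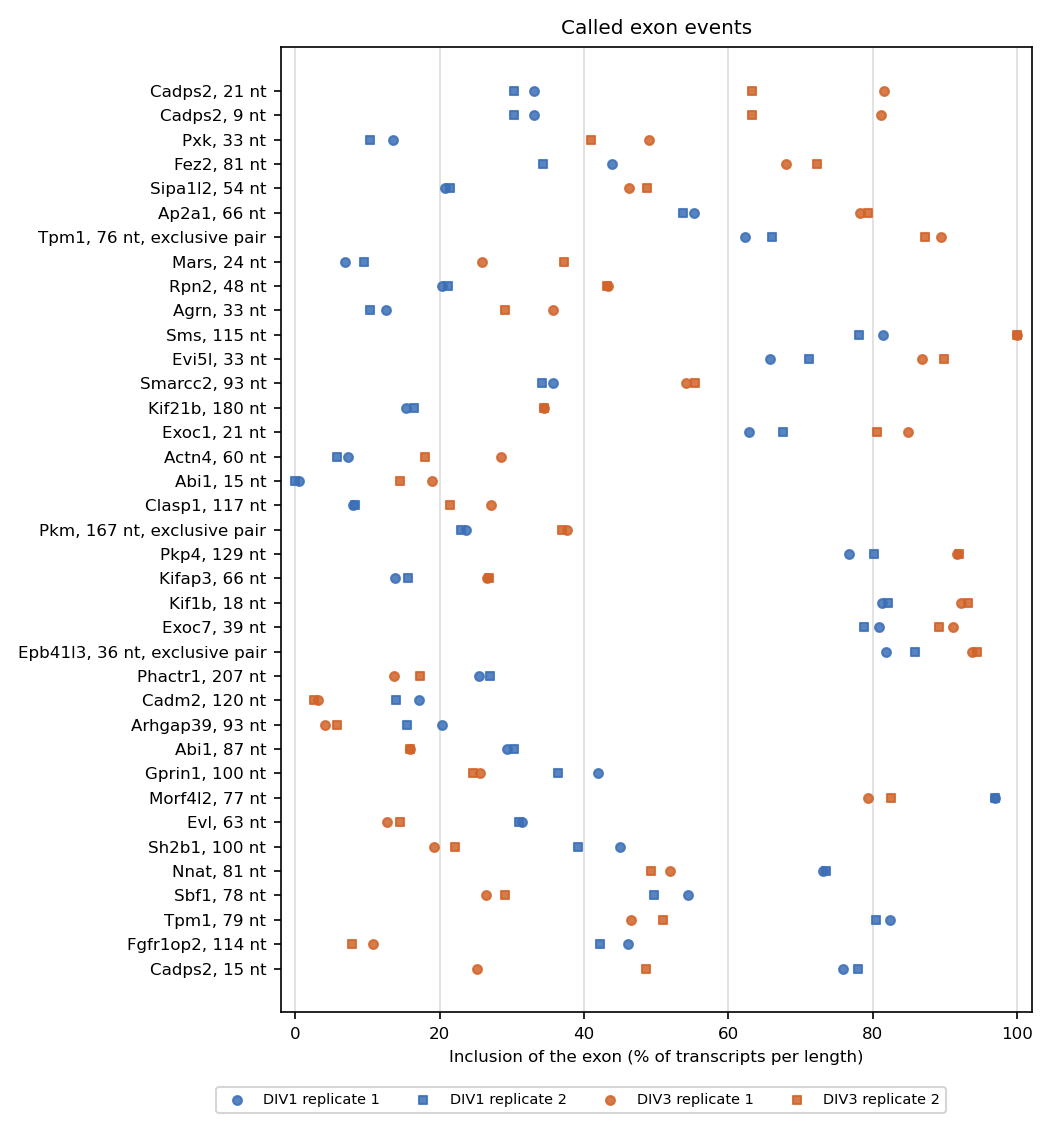
Inclusion, in percent of transcripts per length, of the called exon events outside chromosome 18 in each of the 4 wild-type libraries, with exon length in nucleotides, colour for age and shape for replicate, ordered from the largest rise to the largest fall. The Kif1b exon lies at 81.3% and 82.1% at DIV1 and at 92.3% and 93.2% at DIV3.

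Shares of single transcripts were also tested. Of 7419 genes with 2 or more transcripts kept, 37 (0.499%) were called by edgeR's diffSpliceDGE with a transcript changed by at least 10 percentage points, and 36 of them held at least 100 counts on average. In 27 of the 37 a kept transcript was listed at 0 in both libraries of an age, against 3.80% of all genes tested. Such zeros can be failed estimates of the transcript model. The other 10 genes had none by this rule, but some held a transcript close to 0 at 1 age. In Ankrd6 a transcript at 34.0% and 20.6% at DIV1 stood at 0% and 0.0028% at DIV3. In Rgs17 a transcript stood at 0% and 0.0015% at DIV1 and at 25.4% and 35.1% at DIV3. Morf4l2 and Nup210 also held such a transcript. Among these 10, in Elavl1, which encodes the RNA-binding protein HuR, the 5743-nt transcript held 80.1% and 81.2% at DIV1 and 98.4% and 98.2% at DIV3. The 2317-nt transcript with the same 978-nt coding sequence held 19.8% and 18.7% and then 1.43% and 1.74%.

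In Celf2, another RNA-binding protein, a 5470-nt transcript fell from 51.5% and 52.7% to 20.0% and 19.7%. In Clta, the clathrin light chain A, a transcript of 1079 nt fell from 16.8% and 10.8% to 1.35% and 2.08%. Tpm1 and Gad1 are among the 27 with a transcript at 0. In Tpm1 a 2890-nt transcript, 1 of 8 with the downstream exon of the pair above, went from 28.2% and 29.4% to 58.1% and 51.3%. In Gad1, which encodes an enzyme of GABA synthesis, the 3355-nt coding transcript went from 48.2% and 48.6% to 94.2% and 96.5%, and a noncoding transcript of 2996 nt stood at 44.6% and 45.3% and was then listed at 0. Among the 37 genes, the transcript with the largest gain and that with the largest loss shared all coding exons in 9 genes, differed in them in 23, and included a noncoding transcript in 5.

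By annotated type, retained-intron transcripts took 3.54% and 3.89% of counts at DIV1 and 3.02% and 2.94% at DIV3. Transcripts annotated for nonsense-mediated decay took 1.97% and 1.98% and then 1.69% and 1.73%. Protein-coding transcripts took 90.6% and 90.7% and then 92.2% and 92.4%. The ages did not overlap in any of these 3 types. Nor did they in processed transcripts, at 1.94% and 2.05% and then 1.67% and 1.71%, antisense transcripts or processed pseudogenes. They did in lincRNA, at 1.38% and 0.774% and then 0.902% and 0.634%. The ages also overlapped in mitochondrial rRNA, at 0.0592% and 0.0431% and then 0.0588% and 0.0742%. So did they in the type labelled TEC, at 0.0784% and 0.0791% and then 0.0797% and 0.0714%. The shares are parts of 1 total, so they do not move independently. These shares were not tested.

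Fold changes followed transcript length. Over 16801 genes, which are not independent replicates, the Spearman correlation between log2 fold change and length was 0.21. In 5 groups by length the median log2 fold change went from -0.16 in the shortest (median 982 nt) to 0.15 in the longest (median 5930 nt), and the share called higher from 6.87% to 31.1%. Replicates of 1 age also differed along length. The correlation of length with the log2 ratio of replicate 1 to replicate 2 was 0.29 at DIV1 and 0.33 at DIV3. With an offset per library that removes the smooth trend, the correlation was 0.03 and the group medians lay between -0.01 and 0.00. The genes then called numbered 3845 higher and 3548 lower. Of the calls, 5843 were shared with the same sign and 0 had the opposite sign, 238 were lost and 1550 were added. For transcript shares, the correlation of share change with relative length was 0.10 over 20420 transcripts, and the median gene's share-weighted length changed by less than 0.01 on the log2 scale.

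**Figure D5:**
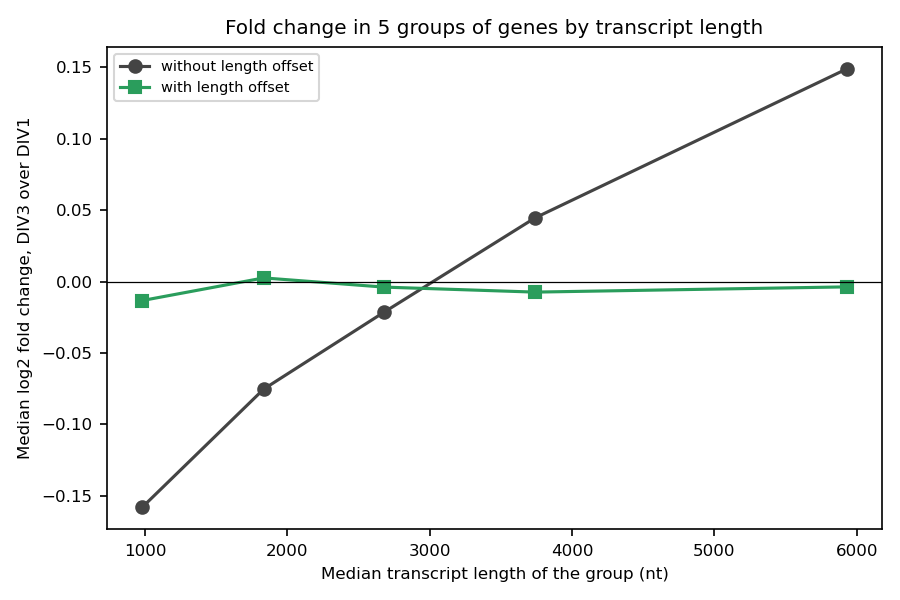
Median log2 fold change of DIV3 over DIV1 against the median transcript length in nucleotides, for 5 groups of genes ordered by length, without and with the length offset. The medians go from -0.16 to 0.15 without the offset and lie between -0.01 and 0.00 with it.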

How the data were processed

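Stranded total RNA libraries (TRIzol, DNase, TruSeq, per the labels' protocols) were quantified by the authors with STAR and RSEM on GRCm38 (mm10), per the submitters' processing notes. Annotation release and tool versions were not given in the sources used here. Deposited values are expected counts per gene and per transcript, unscaled and not pooled. They were rounded for testing. GENCODE M21 supplied names, exons and lengths by identifier (99.5% of genes and 99.4% of transcripts matched). RSEM's uncertainty in splitting reads is not in the deposited tables, and no test carries it.

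Genes passing filterByExpr (minimum count 10) were scaled by TMM and tested with edgeR 4.0.16 (R 4.3.3, quasi-likelihood F test, Benjamini-Hochberg over all genes) in 1 fit of all 6 libraries with 3 residual degrees of freedom. The standard error is the size of the log2 fold change over the square root of F. Transcripts with a mean share of at least 5% in a wild-type group were tested with edgeR's diffSpliceDGE (Simes), called at an adjusted p under 0.05 and a change of 10 percentage points. Alternatives covered scaling, filter, test, fitted libraries, replicate block, length offset and each library left out. Each test was checked on simulated counts.

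Exon events needed 50 counts on average and each form at 5% or more at some age. They were first tested with edgeR's diffSpliceDGE, which called 41. On simulated counts for these 5940 events, that test called 7.53% to 9.46% of unchanged events at the unadjusted 0.05 level and limma 3.58.1's diffSplice 4.88% to 5.64%, so limma's was used. It called 38, of which 30 were called by both. The choice was made on the simulation, after the edgeR calls were known. On simulated transcript counts without change, diffSpliceDGE with Simes gave 4.12% to 5.56%. It called 4 genes over 2 runs at a simulated dispersion of 0.05 and 0 at 0.015. The simulated counts held no error of splitting reads between transcripts, so they cannot show how the test behaves under such error.

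The 44 gene lists, the 16 pairs and the members were chosen with earlier results of these data known. Named genes were, per list, the called members of at least 5 mean CPM with the 2 largest increases and decreases, from which the text gives a selection, both genes of a pair, and the 8 largest changes each way at 20 mean CPM. The exons described and printed, and the cell type markers named, were chosen after their values were seen. Isoform results on chromosome 18 are not described here. Some pair and marker results are not reported here.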

Additional observations from a re-analysis of the deposited data

How the results depend on the processing

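The calls numbered 6088 genes (3328 higher, 2760 lower). They numbered 10799 (5419 and 5380) with the replicate block in the 4 wild-type libraries and, leaving out 1 library, 2743 to 8698 (1609 to 4527 higher, 1134 to 4188 lower), the low ends without a wild-type library. Library totals gave 2563 higher and 3996 lower, 39.1% higher against 54.7%, with a median of -0.13 over all genes. Genes with changed transcript shares numbered 37, and 134 with the gene-level F test, 90 with limma diffSplice, 24 at a mean share of at least 10%, 92 in the 4 wild-type libraries, 16 with the replicate block, 19 with length offset and block, and 32 to 67 leaving out 1 library. Exon events numbered 38, and 183 in the 4 wild-type libraries, 2 with the replicate block, 53 with the length offset, 41 with edgeR and 0 to 192 leaving out 1 library. The correlation of fold change with length was 0.210, and 0.194 with the longest annotated transcript. The cause of these changes was not tested.

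Values that changed sign were the list medians of tubulin isotypes (-0.01 with library totals, -0.03 with no filter), oxidative phosphorylation (-0.05 with library totals), the Bcl2 family (-0.06 to 0.02 leaving out 1 library) and endothelial markers (-0.74 to 0.00 likewise). Among genes not called with all 6 libraries and TMM they were Eno2 (-0.01 with library totals, -0.00 to 0.23 leaving out 1 library), Phf10 (-0.04 to 0.00 likewise), Slc12a2 (0.03 without DIV3 replicate 2) and Tubb5 (-0.01 with library totals). Of 144 named genes, 37 changed their call or sign under some alternative.

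Same-numbered replicates deviated together in the wild-type groups (Pearson r = 0.60 over genes) and not with the knockout (-0.02 and -0.17), and nothing in the labels pairs them. The replicate block with all 6 libraries called 4702 genes.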
